A study of Mus musculus with 7 samples.

Results

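The probes described here were high in mouse muscle at the end of a run and back near the control level 24 h after a 12 h run. They were chosen from measured values by a rule with 3 parts. A probe needed a ratio on all 7 arrays, a mean log2 ratio of R3h and R12h of at least 0.58 (1.49-fold), and a log2 ratio on P24h between -0.3 and 0.3. The rule found 59 of 16273 probes, of which 9023 had a ratio on all 7 arrays. R3h, R12h and P24h therefore chose the members, and their values are given as a description without a test. P3h, P6h, P12h and R4w took no part in the choice.

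Each array compared the plantaris of running mice, whose RNA was pooled from 3 to 5 animals and labelled with Cy5, with that of 8 untrained control mice, pooled and labelled with Cy3. R3h was taken right after 3 h of running, R12h right after 12 h of running, and P3h, P6h, P12h and P24h came 3, 6, 12 and 24 h after a 12 h run. R4w was taken after 4 weeks of running, and its label does not give the time since the last run. The labels name no strain, age, sex or genotype, no dye swap and no second array of any condition, and the same control is on all 7 arrays. Pools of RNA give no spread between mice. A whole muscle also holds vessels, nerve, connective tissue and blood, so fewer cells of a type and less RNA per cell cannot be told apart.

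The plantaris is a hindlimb muscle rich in fast fibres that extends the ankle. Long running draws on its glycogen and fat, strains its membranes and proteins and sets off transient transcription. Stress, immediate early and metabolic genes are known for such a rise during exercise or in the first hours after it, with a return towards the resting level within about a day. Repeated bouts over weeks are known to shift a muscle towards a more oxidative state, and the transient response can differ in a trained muscle.

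Values are log2 ratios of the 2 channels. The direction is not stated. A positive value likely means more RNA in the running pool, since ratios are usually given as red over green and the running pools were red. Each symbol is the label that the platform annotation gives a probe. Of the 59 members, 52 had 1 symbol (all different) and 7 had none and are given by number. Most other probes with the same symbols did not follow the members. Of 25 such probes with a ratio on R3h or R12h, 3 had a mean of at least 0.58 there, against 2.95% of all 9023 probes. Among the 3, the Ltk probe rested on R12h alone and the Tssk1 probe on R3h alone. The median over the 25 was 0.04. The probe beside Sec23a lay at -1.94. The one beside Gna11 lay at 0.72, but at 0.37 on P3h and 0.26 on P12h, where the member had 3.32 and 1.91. Probes annotated to the same sequence record as the members Prkcd, Ltk and Uts2 had run-end means of 0.26, 0.09 and 0.04. What is said below of a gene's function is background on the labelled gene, and that the probe measured its transcript was not tested. Several labels belong to genes known from other tissues, such as Cyp7a1 (liver), Csn1s1 (lactating mammary gland), Elavl4 (neurons), Tssk1 (testis) and Epb42 (red cells). No member carried a symbol from the 10 marker lists for fibre and cell types, which had 74 probes with a ratio on all 7 arrays, so these lists do not check the tissue among the members. On R12h the list medians lay between -0.28 (Schwann cell and nerve) and 0.19 (smooth muscle and pericyte).

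On 3 of the arrays the ratio moved with the probe number. In the first of 12 stretches of 1547 probe numbers the median was -0.23 on R3h, -0.29 on R12h and -0.21 on R4w. In the last stretch it was 0.09, 0.08 and 0.09. On P3h, P6h, P12h and P24h all 12 stretch medians lay between -0.03 and 0.07. The run-end arrays that chose the members and the trained array thus shared a gradient that the recovery arrays did not show. When each probe was set against the median of its 200 nearest probes on each array, the rule found 80 probes, among them 45 of the 59. Of the 14 members lost, 9 had a corrected run-end mean below 0.58 and 7 a corrected P24h outside the band. The lowest corrected run-end mean of any member was 0.49.

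At the end of running the members were moderately high, with 3 far above the others. The run-end mean is that of R3h and R12h. Its median over members was 0.73, and 13 members reached 1. On R3h the members ran from 0.07 to 2.79 (median 0.69) and on R12h from 0.18 to 3.30 (median 0.90). Both arrays reached 0.58 for 29 members, and R12h was the higher of the 2 for 39. On P24h the members lay between -0.30 and 0.30 by the rule, 39 above 0 and 20 below. Spots labelled Gapdh had an SD between spots of 0.31 on R3h (20 spots), 0.37 on R12h (22 spots) and 0.63 on P24h (18 spots). The last is wider than the band of 0.3, so a value inside it does not fix the level of a single probe. Of all 9023 probes, 266 (2.95%) had a run-end mean of at least 0.58. The 59 members were 22.2% of these, while 188 had P24h above 0.3 and 19 below -0.3. Over all 9023 probes 52.6% lay within 0.3 of 0 on P24h.

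**Figure D1:**
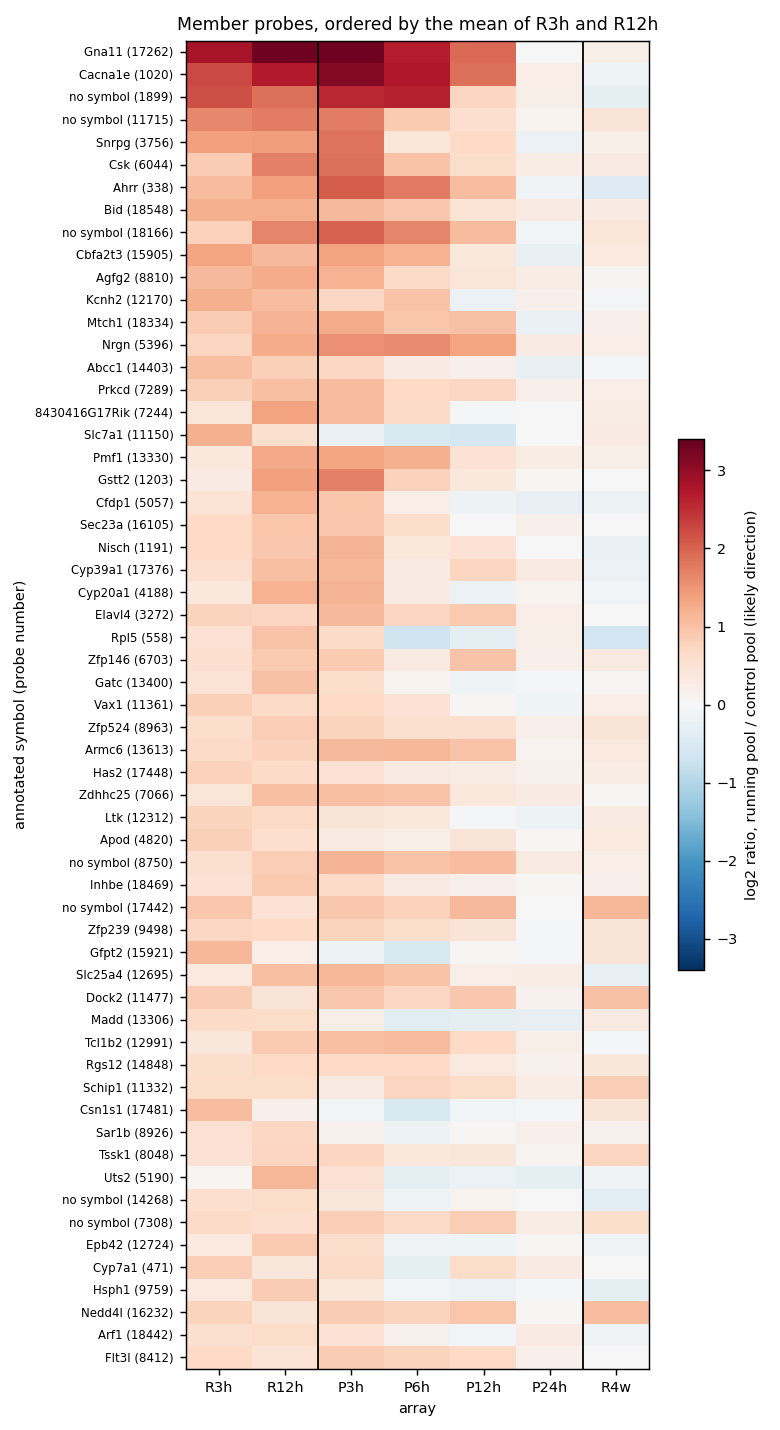
Log2 ratio of each of the 59 member probes (rows, ordered by the mean of R3h and R12h) on each of the 7 arrays (columns), with red for positive and blue for negative values. The darkest rows are Gna11, Cacna1e and probe 1899, the P24h column is pale because the rule required it, and R4w is dark for a few rows near the middle and bottom.

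Just inside the run-end threshold stood Flt3l (0.58004), Arf1 (0.586) and Nedd4l (0.599). Just outside it were Msi1 (0.578), Wnt2 (0.569) and Bcl2 (0.566), so the members grade into probes that the rule left out. At the upper edge of P24h, Cyp39a1 (0.298), probe 8750 (0.295) and Arf1 (0.282) were inside. Probe 9129 (0.301), Fam32a (0.308) and Ccdc124 (0.309) were outside. At the lower edge Uts2 (-0.299), Madd (-0.276) and Cfdp1 (-0.273) were inside, and Erc1 (-0.303), G3bp2 (-0.327) and Ribc1 (-0.333) outside. Ccdc124, with 2.06 on P3h and 1.66 on P6h, was close there to the member Ahrr (2.06 and 1.77). The 2 differed on P12h (0.59 and 1.05) and on R4w (0.25 and -0.43).

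The question the recovery arrays answer is how long the members stayed high after the run. Most were still above the control pool for hours. On P3h they ran from -0.23 to 3.32 (median 0.90), on P6h from -0.68 to 2.73 (median 0.64) and on P12h from -0.57 to 1.91 (median 0.43). The number at or above 0.58 was 46 of 59 on P3h, 32 on P6h and 24 on P12h. Over all 9023 probes that share was 7.74% on P3h, 5.45% on P6h and 4.38% on P12h. P3h was the highest of the 3 for 45 members, against 37.7% of all probes, and 30 members were lower at each step from P3h to P6h to P12h, against 13.9%. Because the rule fixed a high start and an end near 0, and all arrays share the control pool, a falling course between them is partly set by the choice.

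The mean of P3h, P6h and P12h was tested against 0 for every probe (limma, Benjamini-Hochberg adjustment over 9023 probes). It was higher than 0 for 36 of the 59 members and lower for 1 at an adjusted p under 0.05. Over all probes 12.9% were called positive and 9.22% negative. The median of the members' recovery means was 0.67, against 0.00 over all probes, and 53 of 59 were above 0. The 3 arrays are different times, so the error holds the course as well as the noise, and the control pool's own spread is not in the test. The members were chosen as high on R3h and R12h against that same pool. A positive recovery mean is therefore partly set by the choice, which the shares over all probes are not. Without P3h 30 members were called positive, 29 of them among the 36. Without P6h these numbers were 18 and 17, and without P12h 21 and 20. Calls held in all 3 of these fits for 12 members: Gna11, Cacna1e, Mtch1, Nrgn, Elavl4, Armc6, probe 8750, probe 17442, Dock2, Tcl1b2, Nedd4l and Flt3l.

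Probes labelled with adipocyte markers were also mostly above the control pool in recovery, although none is a member. The list had 6 probes with a ratio on all 7 arrays. Their median was 0.14 on R12h, and 0.43, 0.37, 0.46 and 0.41 from P3h to P24h in order. The recovery mean was called positive for 4 of the 6 and negative for 0 (limma), against 12.9% and 9.22% of all probes. It ran from -0.04 to 0.57. The medians of the other 9 marker lists lay between -0.20 and 0.31 on the 3 recovery arrays. These lists had 0 to 3 positive calls each. The highest counts were 3 of 7 probes (endothelial), 3 of 11 (fast fibre) and 3 of 11 (slow fibre), with 0, 0 and 2 negative calls. The part of any of these cells in the members' values was not tested.

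The members differed in which recovery arrays were at or above 0.58. P3h, P6h and P12h were all at or above 0.58 for 19 members, P3h and P6h for 12, and P3h alone for 11. P3h and P12h without P6h were high for 4 and P6h and P12h without P3h for 1. None of the 3 arrays reached 0.58 for 12. Over all 9023 probes, 2.25% were at or above 0.58 on all 3 arrays and 90.0% on none. These patterns were read from the same 3 arrays that the test of the recovery mean uses. A high or low mean within a pattern, and much of the order of its medians, follow from that sorting and are a description.

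**Figure D2:**
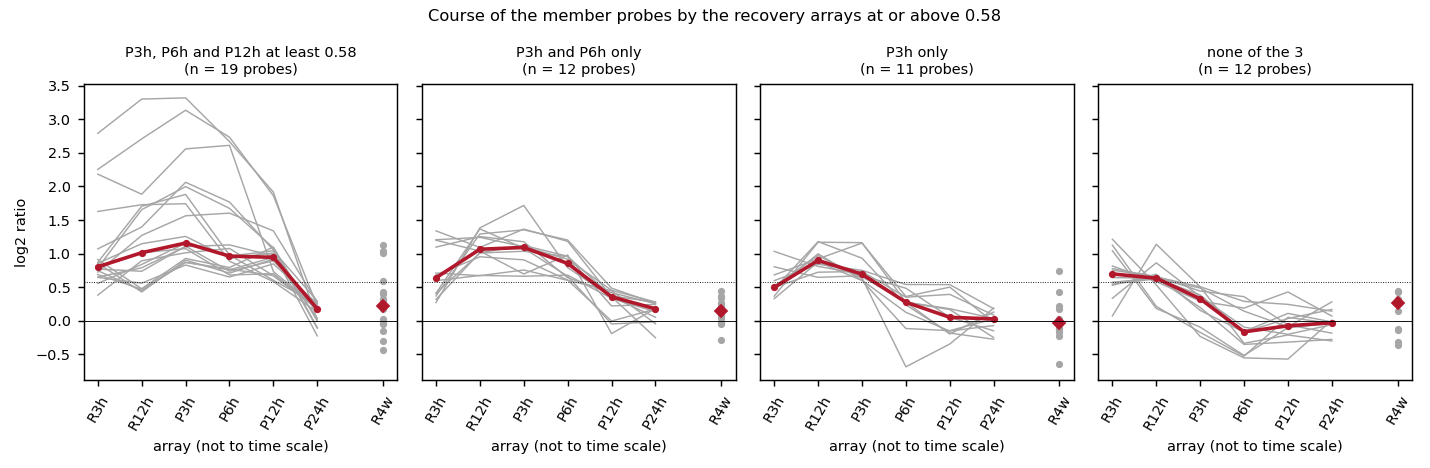
Log2 ratio on each array for the members in 4 of the patterns (grey lines, with grey points for R4w) and their median (red line and diamond), the dotted line marking 0.58; arrays are in sampling order and not to time scale. The median of the 19 members in the first panel stayed at 0.95 on P12h and was 0.18 on P24h, while that of the 12 members in the last panel was already -0.16 on P6h.

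The 19 probes that were high through all 3 recovery arrays held the highest members. Their medians were 1.16, 0.96 and 0.95 on the 3 recovery arrays and 0.18 on P24h. Sorting fixed P12h at 0.58 or more for each of them and the rule fixed P24h at 0.3 or less, so a lower P24h than P12h was set by the choice.

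Gna11, which encodes an alpha subunit of the Gq family of G proteins that activates phospholipase C, was the highest member. Its log2 ratio was 2.79 on R3h and 3.30 on R12h, then 3.32, 2.67 and 1.91 on P3h, P6h and P12h, 0.01 on P24h and 0.19 on R4w. It was high on the first 5 arrays and close to the control pool on the last 2. The recovery mean was 2.63 ± 0.70 (SD, n = 3 arrays; limma adjusted p 0.00664).

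Cacna1e, a pore-forming subunit of a voltage-gated calcium channel of the R type, followed nearly the same course. It stood at 2.25 on R3h and 2.71 on R12h, at 3.13, 2.73 and 1.86 on P3h, P6h and P12h, and at 0.22 on P24h and -0.15 on R4w. P3h was its highest array, and P24h and R4w lay far below all others. Its recovery mean was 2.58 ± 0.65 (SD, n = 3 arrays; limma adjusted p 0.00598).

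Probe 1899, with no symbol, kept its height to 6 h and then dropped away. Its values were 2.18 and 1.88 at the run ends R3h and R12h, 2.56 on P3h, 2.61 on P6h, 0.73 on P12h, then 0.20 for P24h and -0.30 for R4w. Probe 11715, also unnamed, came down sooner, with 1.63, 1.73 and 1.74 on R3h, R12h and P3h, 0.89 and 0.58 on P6h and P12h, 0.13 on P24h and 0.43 on R4w. Probe 18166 had 0.79 and 1.65 on R3h and R12h, 1.997, 1.67 and 1.09 on P3h, P6h and P12h, -0.10 on P24h and 0.41 on R4w. All 3 of these unnamed probes had their highest value on P3h or P6h.

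Ahrr, which represses signalling by the aryl hydrocarbon receptor, had 1.07 and 1.40 on R3h and R12h, 2.06, 1.77 and 1.05 on P3h, P6h and P12h, -0.11 on P24h and -0.43 on R4w. Its recovery mean was 1.63 ± 0.52 (SD, n = 3 arrays; limma adjusted p 0.00987). Nrgn encodes neurogranin, a calmodulin-binding protein best known from neurons. From R3h to P24h it had 0.73, 1.27, 1.56, 1.60, 1.34 and 0.28, and on R4w 0.22. Both probes were higher on P3h and P6h than at either run end. The recovery mean of Nrgn, 1.501 ± 0.142 (SD, n = 3 arrays), had the smallest adjusted p of any member, at 0.00254 by limma.

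Csk, the kinase that holds Src family kinases inactive, ran through 0.87, 1.71, 1.88, 0.98, 0.60 and 0.25 from R3h to P24h and was at 0.30 on R4w. Prkcd, a protein kinase C isoform activated by diacylglycerol, had 0.80, 1.01, 1.07, 0.68, 0.70 and 0.18 from R3h to P24h and 0.22 on R4w. Mtch1, a carrier homologue of the outer mitochondrial membrane, had 0.86, 1.15, 1.26, 0.93, 1.01 and -0.22 from R3h to P24h and 0.17 on R4w. The Csk probe was highest on P3h and lower on each later array, while Prkcd and Mtch1 were about as high on P12h as on P6h.

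A further 6 members of this group lay between 0.65 and 1.16 on all 3 recovery arrays. They were Elavl4, which binds RNA in neurons, Armc6, Tcl1b2, Flt3l, a cytokine that drives dendritic cell development, and probes 8750 and 7308. On R4w probe 7308 had 0.60 and the other 5 between -0.05 and 0.33. The Armc6 probe was flat at 1.10, 1.13 and 0.97 on P3h, P6h and P12h, then 0.13 on P24h. Probe 8750 was likewise flat at 1.16, 0.96 and 1.04, then 0.29. For both of these the step from P12h to P24h was the largest between neighbouring arrays.

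The last 3 of the 19 had almost the same values as each other and were as high on R4w as in recovery. Dock2 encodes an activator of Rac found in blood cells. It had 0.86, 0.43, 0.90, 0.71, 0.92 and 0.15 from R3h to P24h and 1.01 on R4w. Nedd4l encodes a ubiquitin ligase that limits sodium channels at the cell surface. It had 0.75, 0.45, 0.87, 0.76, 0.95 and 0.04 from R3h to P24h and 1.04 on R4w. Probe 17442 had 0.91, 0.48, 0.93, 0.79, 1.10, 0.00 and 1.12 in the same order. All 3 were lower on R12h than on R3h, near 0 on P24h and highest on R4w. Over the 4 arrays that the rule did not use, Dock2 and Nedd4l were the closest pair of members, at a distance of 0.07 log2 units.

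The 12 probes that were high on P3h and P6h but not on P12h had medians of 1.09, 0.85, 0.36 and 0.18 from P3h to P24h. The lower P12h and P24h medians were set by the sorting and by the rule. Bid, a protein that links death receptors to the mitochondrial path of apoptosis, had 1.21, 1.24, 1.10, 0.92, 0.45 and 0.28 from R3h to P24h and 0.27 on R4w. Cbfa2t3, a transcriptional corepressor, had 1.34, 1.09, 1.36, 1.18, 0.36 and -0.25, and 0.34 on R4w. After subtraction of the local median both left the P24h band, Bid at 0.44 and Cbfa2t3 at -0.33, so their return to the control level was not stable to that step.

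Gstt2, a glutathione transferase, was lower after 3 h of running than after 12 h. Its probe number lies in the first stretch, where R3h and R12h ran low. With the local median subtracted it had 0.61 on R3h, 1.72 on R12h and 1.71 on P3h, so P3h was then not its highest array. Its uncorrected values were 0.27 and 1.38 on R3h and R12h, 1.72, 0.79 and 0.36 on P3h, P6h and P12h, 0.05 on P24h and -0.02 on R4w. Slc25a4 encodes the ADP/ATP carrier that exports ATP from the mitochondria of muscle. It had 0.32, 1.01, 1.12, 0.96, 0.22 and 0.25 from R3h to P24h and -0.29 on R4w. Pmf1, a kinetochore protein, had 0.37, 1.29, 1.35, 1.20, 0.49 and 0.26, and 0.20 on R4w. In the uncorrected values all 3 were more than 0.5 higher on R12h than on R3h and highest on P3h. All 3 were called positive in the recovery mean (limma adjusted p 0.0480, 0.0374 and 0.0201). The call of Gstt2 was lost without P6h (limma adjusted p 0.136) and without P12h (0.0705). It was also lost with the arrays centred on their medians, with the nearest probes subtracted, with all probes tested and with robust variances (limma adjusted p 0.0508 to 0.0533).

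Kcnh2, the potassium channel that repolarises the heart, had 1.20, 1.04, 0.70, 0.98, -0.19 and 0.18 from R3h to P24h and -0.04 on R4w. Sec23a, a coat protein of the vesicles that leave the endoplasmic reticulum, had 0.68, 0.95, 0.91 and 0.61 from R3h to P6h and 0.18 on P24h. Probe 7244 (8430416G17Rik) had 0.41, 1.37, 1.08, 0.66, -0.05 and -0.01 from R3h to P24h. These 3 were within 0.3 of 0 on P12h, and their recovery means did not pass the test (limma adjusted p 0.155, 0.0895 and 0.103). The other 4 of the 12 were Agfg2, Zdhhc25, Zfp239 and Rgs12, a regulator that shortens G protein signals. Their P3h values lay between 0.66 and 1.18, and those on P12h between 0.33 and 0.45.

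Of the 11 probes high on P3h alone, all were below 0.58 by 6 h. Their medians were 0.70 on P3h, 0.28 on P6h and 0.05 on P12h, and 3 of 11 (Nisch, Zfp524 and Tssk1) were called positive. Abcc1, an export pump for glutathione conjugates, had 1.03, 0.81, 0.70, 0.27, 0.17 and -0.25 from R3h to P24h and -0.03 on R4w. Cfdp1 had 0.48, 1.18, 0.93, 0.24, -0.18 and -0.27, and -0.16 on R4w. Cyp20a1 had 0.37, 1.17, 1.16, 0.28, -0.20 and 0.13, and -0.11 on R4w. These 3 probes came down in order from P3h to P12h.

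Rpl5, a protein of the large ribosomal subunit, was 1 of only 2 members on any of the 25 gene lists. The lists covered 2.98% of all 9023 probes and 3.39% of the members. Its values from R3h to P24h were 0.52, 0.97, 0.64, -0.68, -0.34 and 0.19, and on R4w it had -0.64. It went from above the control pool on P3h to the lowest value of any member on P6h, and was also the lowest member on R4w. Its probe number lies in the first stretch, where R3h, R12h and R4w ran low. With the local median subtracted its R4w value was -0.37 and no longer the lowest of the members. The remaining members of this group were Gatc, Vax1, Inhbe, a subunit of activin E, and Epb42, besides the 3 called ones.

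The 4 probes that were high on P3h and P12h but not on P6h dipped on the array with the most probes at 0 (41.7%). The part of that array in the dip was not tested. Snrpg, a core protein of the spliceosome, had 1.39, 1.43, 1.84, 0.40, 0.67 and -0.19 from R3h to P24h and 0.19 on R4w. Its recovery mean of 0.97 ± 0.76 (SD, n = 3 arrays) did not pass the test (limma adjusted p 0.0568). Cyp39a1, which hydroxylates oxysterols on the way to bile acids, had 1.14, 0.28 and 0.74 on P3h, P6h and P12h. Cyp7a1, the rate-limiting enzyme of bile acid synthesis, had 0.66, -0.34 and 0.62, and Zfp146 had 0.89, 0.27 and 0.97. Among the members as a whole, 22 of 59 were higher on P12h than on P6h, against 52.5% of all probes. Schip1 was high on P6h (0.74) and P12h (0.64) but not on P3h (0.30), and was 0.85 on R4w.

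The 12 members below 0.58 on all 3 recovery arrays were already below it 3 h after the run. Their medians were 0.70 on R3h and 0.63 on R12h, then 0.33 on P3h, -0.16 on P6h and -0.07 on P12h. Slc7a1, the main importer of arginine and lysine, was the only member called negative in recovery. It had 1.21 on R3h and 0.53 on R12h, then -0.23, -0.55 and -0.57 on P3h, P6h and P12h, 0.01 on P24h and 0.28 on R4w. It was highest after 3 h of running and below the control pool on all 3 recovery arrays. The recovery mean was -0.45 ± 0.19 (SD, n = 3 arrays; limma adjusted p 0.0291), and without P6h or without P12h it was not called.

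Gfpt2 and Csn1s1 had a course like that of Slc7a1 up to P6h, but were near 0 on P12h, where Slc7a1 had -0.57. Gfpt2, which makes glucosamine phosphate at the entry of the hexosamine path, had 1.13, 0.22, -0.17, -0.52, 0.05 and -0.04 from R3h to P24h and 0.43 on R4w. Csn1s1, a milk casein, had 1.04, 0.18, -0.09, -0.51, -0.10 and -0.04, and 0.44 on R4w. These and Slc7a1 are the only members that stood at least 0.5 higher on R3h than on R12h, and all 3 had a negative recovery mean. The means of Gfpt2 (-0.21) and Csn1s1 (-0.24) did not pass the test (limma adjusted p 0.244 and 0.163). Of the 16 members at least 0.5 higher on R12h than on R3h, 15 had a positive recovery mean, near the share of all members (53 of 59). The median of the 16 on P3h was 1.10, against 0.90 over all members. Grouping members this way uses the values that chose them and is a description.

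Hsph1, a large heat shock protein that helps to refold damaged proteins, was the second member on a list, and the only high one among the 13 probes of the heat shock list. From R3h to P24h its values were 0.34, 0.86, 0.36, -0.09, -0.20 and -0.06, with -0.32 on R4w. It reached 0.58 on R12h alone. Uts2, the vasoactive peptide urotensin 2, had 0.07, 1.14, 0.51, -0.33, -0.21 and -0.30 from R3h to P24h and -0.13 on R4w, again with R12h standing out. With the local median subtracted Hsph1 had a run-end mean of 0.57 and Uts2 one of 0.58 with P24h at -0.35, and neither met the rule. The other members here were Has2, which makes hyaluronan, Ltk, Apod, Madd, Sar1b and Arf1, small GTPases that form coated vesicles, and probe 14268. Of them Has2 (0.35) and Apod (0.30) had a recovery mean that was called positive. The call of Apod (limma adjusted p 0.0485) was lost with the arrays at a common spread (0.0531), with all probes tested (0.0516) and without any 1 of the 3 arrays (0.0647 to 0.224).

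Change within recovery was tested as the slope over P3h, P6h and P12h. It was below 0 for 51 of the 59 members, with a median of -0.26 per step against -0.01 over all probes. No member and no other probe passed an adjusted p of 0.05 (limma), where 3 arrays leave 1 residual degree of freedom. At an unadjusted p under 0.05 there were 20 members with a negative and 0 with a positive slope, against 1.5% and 0.743% of all probes. The control pool cancels in this comparison, but the choice of members does not. The rule fixed a high start and an end near 0, so a negative slope is partly set by it. The steepest negative slopes were those of probe 1899 (-0.91 ± 0.28), Gna11 (-0.70 ± 0.11), Cyp20a1 (-0.68 ± 0.12), Gstt2 (-0.68 ± 0.13) and Csk (-0.64 ± 0.13), each per step with its SE. The highest slopes were those of Schip1 (0.17 ± 0.13), Gfpt2 (0.11 ± 0.17), probe 17442 (0.08 ± 0.13), Apod (0.07 ± 0.12) and Zfp146 (0.04 ± 0.21).

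The trained array shows whether the members were also high after 4 weeks of running. Most lay within 0.3 of 0, but a smaller share than of all probes, and a larger share reached 0.58. On R4w the 59 members ran from -0.64 to 1.12, with a median of 0.19 against -0.01 over all probes, and 38 were above 0. Of the members, 36 (61.0%) lay within 0.3 of 0, against 79.8% of all probes. At least 0.58 was reached by 6 members (10.2%), against 1.25% of all probes. They were probe 17442 (1.12), Nedd4l (1.04), Dock2 (1.01), Schip1 (0.85), Tssk1 (0.74) and probe 7308 (0.60). Only Rpl5 lay at or below -0.58, against 2.59% of all probes. Next lowest were Ahrr (-0.43), probe 14268 (-0.35), Hsph1 (-0.32) and probe 1899 (-0.30). This order moved with the local median subtracted. Ahrr then had -0.22 and probe 1899 -0.13, while probe 14268 (-0.46), Hsph1 (-0.38) and Slc25a4 (-0.38) lay below Rpl5 (-0.37). R4w is 1 array without a test of its own, and it shares both the control pool and the gradient along the probe numbers with R3h and R12h. With the local median subtracted 5 members reached 0.58. Of the 6 named above, Schip1 (corrected P24h 0.31), Tssk1 (corrected run-end mean 0.53) and probe 7308 (0.53) then no longer met the rule.

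**Figure D3:**
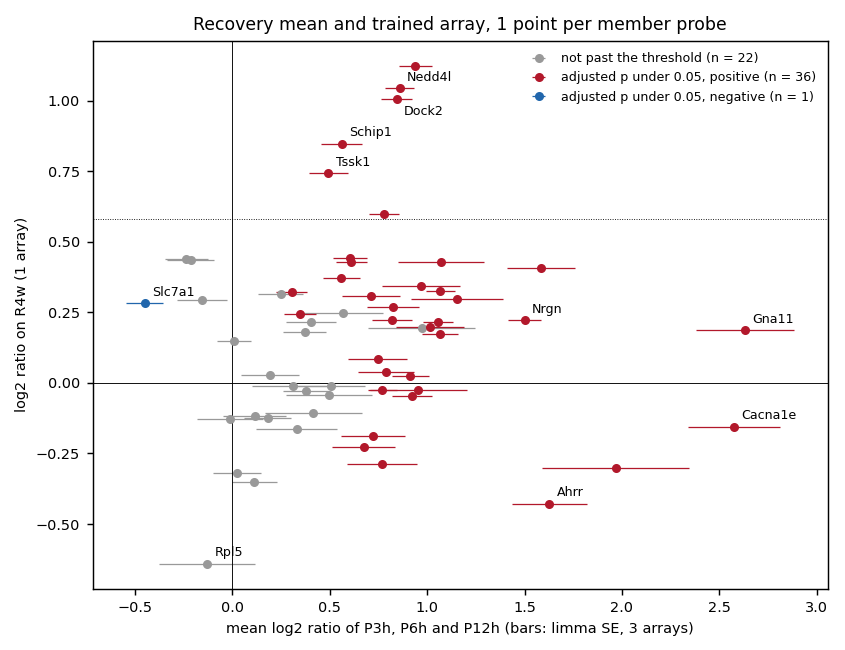
Mean log2 ratio of P3h, P6h and P12h (horizontal axis, bars are the limma SE over 3 arrays) and log2 ratio on R4w (vertical axis) for each of the 59 members, coloured by the test of the recovery mean. Gna11 and Cacna1e lie far right near 0 on R4w, while Nedd4l and Dock2 lie near 1 on R4w at a recovery mean below 1.

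R4w was lower than the recovery mean for 47 of 59 members, with a median difference of -0.49 against -0.02 over all probes. No probe passed an adjusted p of 0.05 (limma, 1 trained array taken to vary like the recovery arrays). At an unadjusted p under 0.05, 17 members were lower and 3 higher on R4w, against 8.98% and 4.42% of all probes. The largest differences were those of Cacna1e (-2.73), Gna11 (-2.44), probe 1899 (-2.27) and Ahrr (-2.06), with limma adjusted p from 0.210 to 0.338. Without P3h the difference of Cacna1e was called (-2.45, limma adjusted p 0.0491). With the nearest probes subtracted the differences of Cacna1e, probe 1899 and Ahrr were -2.54, -2.07 and -1.84. The 3 members higher on R4w were Slc7a1 (0.73), Csn1s1 (0.68) and Gfpt2 (0.65). R4w lay below all 3 recovery arrays for 34 members, against 34.5% of all probes, and above all 3 for 9, against 28.4%.

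Compared with the 188 probes that were high at run end and still above 0.3 on P24h, the members were lower already on the recovery arrays. The medians of the 188 were 1.06 on P3h, 0.94 on P6h and 0.75 on P12h, where the members had 0.90, 0.64 and 0.43. For the 188 and the members, the medians were 0.74 and 0.69 on R3h, 0.92 and 0.90 on R12h, and 0.23 and 0.19 on R4w. On R12h 95.2% of the 188 and 84.7% of the members were at or above 0.58, so the 188 were somewhat higher at run end too. The 19 probes below -0.3 on P24h had medians of 0.98, 0.62 and 0.45 on P3h, P6h and P12h, close to those of the members. Probes are not replicates of a condition, so these medians are given without a test.

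**Figure D4:**
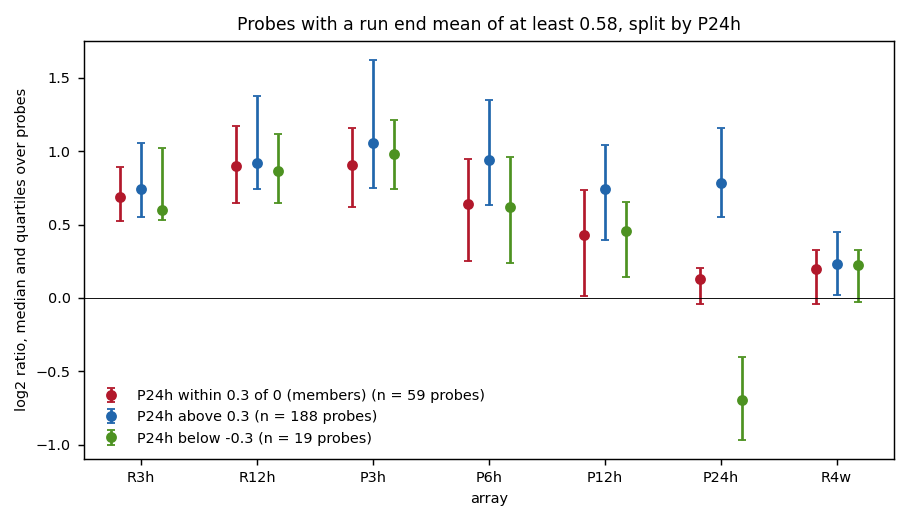
Median log2 ratio (points) and quartiles over probes (bars) on each array for all probes with a mean of R3h and R12h of at least 0.58, split by P24h. The members (red) and the probes that stayed above 0.3 on P24h (blue) have medians of 0.90 and 0.92 on R12h and of 0.43 and 0.75 on P12h.

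By probe number the members were spread over the whole array, from 338 to 18548. The last of 6 equal stretches held 23.7% of the members and 16.3% of all 9023 probes, and the first 11.9% and 18.5%. This runs the same way as the gradient on R3h and R12h. Of the 45 members that met the rule after correction, 30 were called positive in the uncorrected recovery mean.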

How the data were processed

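The authors deposited a table of log2 ratios of both dyes, with a row per probe and a column per array. For the scanner, background correction and normalization, nothing is stated in the labels or the file. The authors' centring and the direction of the ratio stay unknown. The scale is known from the smallest values. The median of the 9023 probes used was between -0.01 and 0.04 on each of the 7 arrays, and their median absolute deviation between 0.16 (R4w) and 0.28 (P24h). Values within 1e-12 of 0 were taken as no ratio (16.1% to 41.7% of probes per array). No intensities were used, so depth is unknown and precision is limited by how few arrays there are.

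Symbols came from the platform annotation, updated through gene identifiers to RefSeq names. Probes were not averaged. Linear models were fitted and moderated with limma 3.58.1 (R 4.3.3). Tests were two-sided, and were tried on simulated data. Alternatives were a common spread, median centring, subtraction of the median of the 200 nearest probes, all probes with a ratio, robust eBayes, each recovery array left out, and other limits of the rule. Probes named were the extremes at run end, in recovery, in slope and on R4w, list members and those at the limits; other members were named to account for all 59. The members and lists were chosen with earlier results of these data known.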

Additional observations from a re-analysis of the deposited data

How the results depend on the processing

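With 1 array per condition no replicate exists, and the number of arrays limits every result. No paired analysis was possible because the labels give no replicate numbers. The number of probes meeting the rule was 102 with arrays at a common spread (all 59 among them), 29 with R3h and R12h each at least 0.58, and 25 with P24h within 0.15 of 0. The members called positive in the recovery mean were 18 to 30 with 1 array left out, and those called negative 0 to 2, with fewer arrays in each fit. Positive calls were 11 of 13 with a run-end mean of at least 1, 14 of 25 with the narrower band and 22 of 29 with both run-end arrays high, and negative calls 0 with the first and last of these. With a run-end mean of at least 1 the median recovery mean was 1.07, the median slope -0.50 and the median difference of R4w from recovery -0.86. That difference was -0.19 with the narrower band. With 1 array left out it was -0.62 to -0.25, with 0 to 1 negative calls. On R4w, 3 members reached 1 and 0 were at or below -1, and 0 were at or below -0.58 with the nearest probes subtracted. The slope without 1 array rests on 2 arrays and was not tested. Rule and values both corrected by the nearest probes, an alternative chosen after seeing the data, gave 48 positive and 1 negative calls among 80 probes.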
